A study of Homo sapiens with 4 samples.

Results

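The genes described are those for the proteins of the mitochondrial ribosome, chosen as the protein-coding genes whose symbol is MRPL or MRPS followed by digits and at most 1 further letter. There were 78 such genes among the 64252 gene identifiers of the count table, 29 with an MRPS symbol (small subunit) and 49 with an MRPL symbol (large subunit). RNA was sequenced from J.gamma1 cells, a human T-cell acute lymphoblastic leukemia line derived from Jurkat that lacks phospholipase C gamma 1. A control short hairpin RNA (shNC) was carried by the cells of 2 libraries, and a hairpin against ELOVL5 (shELOVL5) by those of the other 2. ELOVL5 is an elongase of polyunsaturated fatty acids. Both groups are the same line, with no agent beyond the hairpin named in the labels. All 4 columns of the count table carry the tag D4, which is not explained, and the labels state no time since the hairpin was introduced. Nor do they say whether replicates were separate cultures, so the spread that p-values rest on is that between these libraries and may be technical.

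The mitochondrial ribosome translates the few proteins that mitochondrial DNA encodes, all of them membrane subunits of the respiratory chain and of ATP synthase. Its 12S and 16S ribosomal RNAs are transcribed from mitochondrial DNA as MT-RNR1 and MT-RNR2, while every one of its proteins is encoded in the nucleus, made in the cytosol and imported. The small subunit binds the messenger RNA and decodes it, and the large subunit joins the amino acids. Some of the proteins have counterparts in bacterial ribosomes and others are found in mitochondria alone.

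Levels are CPM, read counts scaled to the size of each library with TMM factors, and changes are log2 fold changes of shELOVL5 over shNC. ELOVL5 itself stood at 342 and 353 CPM in the shNC libraries and at 71.8 and 70.0 CPM in the shELOVL5 libraries, in the direction of the labels. Libraries held between 16254002 and 17338719 counts. The 13 listed markers of T cells and of this leukemia were all measured. Their summed levels were 2135 CPM in both shNC libraries and 1994 and 2004 CPM in the shELOVL5 libraries. Singly, 6 of them were lower and 2 higher at an adjusted p under 0.05 by edgeR (61.5%, against 20.4% of all tested genes). Of the epithelial and fibroblast markers EPCAM, CDH1, COL1A2 and COL3A1 were at 0 throughout, as were HBB and HBG1 of the erythroid list and LYZ and CSF1R of the myeloid list. These lists summed to between 12.6 and 13.9 CPM (epithelial and fibroblast, mostly KRT8 and COL1A1), 8.64 and 12.7 CPM (erythroid, mostly EPOR) and 1.77 and 3.05 CPM (myeloid). KLF1 of the erythroid list was lower, from 1.06 and 1.12 CPM to 0.229 and 0.242 CPM (adjusted p = 0.0499). The B cell list summed to between 26.9 and 47.7 CPM with both shELOVL5 libraries under both controls, most of it CD79A, while MS4A1, PAX5 and CD22 were at or near 0. The part of these shifts in the results on the ribosome was not tested, and in bulk RNA a change per cell cannot be told apart from a change in the mix of cells.

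All 78 genes passed the low-count filter, with counts between 92 and 3180 per library, and none had to be left out of the test. By edgeR's quasi-likelihood test with Benjamini-Hochberg adjustment over 17461 genes, 12 of the 78 fell in shELOVL5, 4 rose and 62 did not pass the threshold of 0.05. That is 20.5% of the genes, against a background of 20.4% of all tested genes called, 9.22% higher and 11.2% lower. The share called was therefore at the background of all tested genes, with 15.4% of the genes lower and 5.13% higher. It was under that of the tested protein-coding genes, of which 24.8% were called, 13.8% lower and 11.0% higher. The median log2 fold change was 0.01, the same as the 0.01 of all tested genes, and the quartiles were -0.20 and 0.11, against -0.24 and 0.24 for all tested genes. Only MRPL9, MRPS18B and MRPS26 had a fitted change beyond 1.5-fold, 3.85% of the genes. The share was 17.8% of all tested genes and 13.7% of the tested protein-coding genes. The CPM of the groups did not overlap for 50 of the genes (64.1%), lower in shELOVL5 for 28 and higher for 22, against a background of 60.1% of all tested genes. The 62 that did not pass ranged from -0.28 (MRPS31) to 0.28 (MRPL54) on the log2 scale. Just outside the threshold were MRPL49, at -0.20 with an adjusted p of 0.0503, and MRPS10, at -0.23 with an adjusted p of 0.0568.

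**Figure D1:**
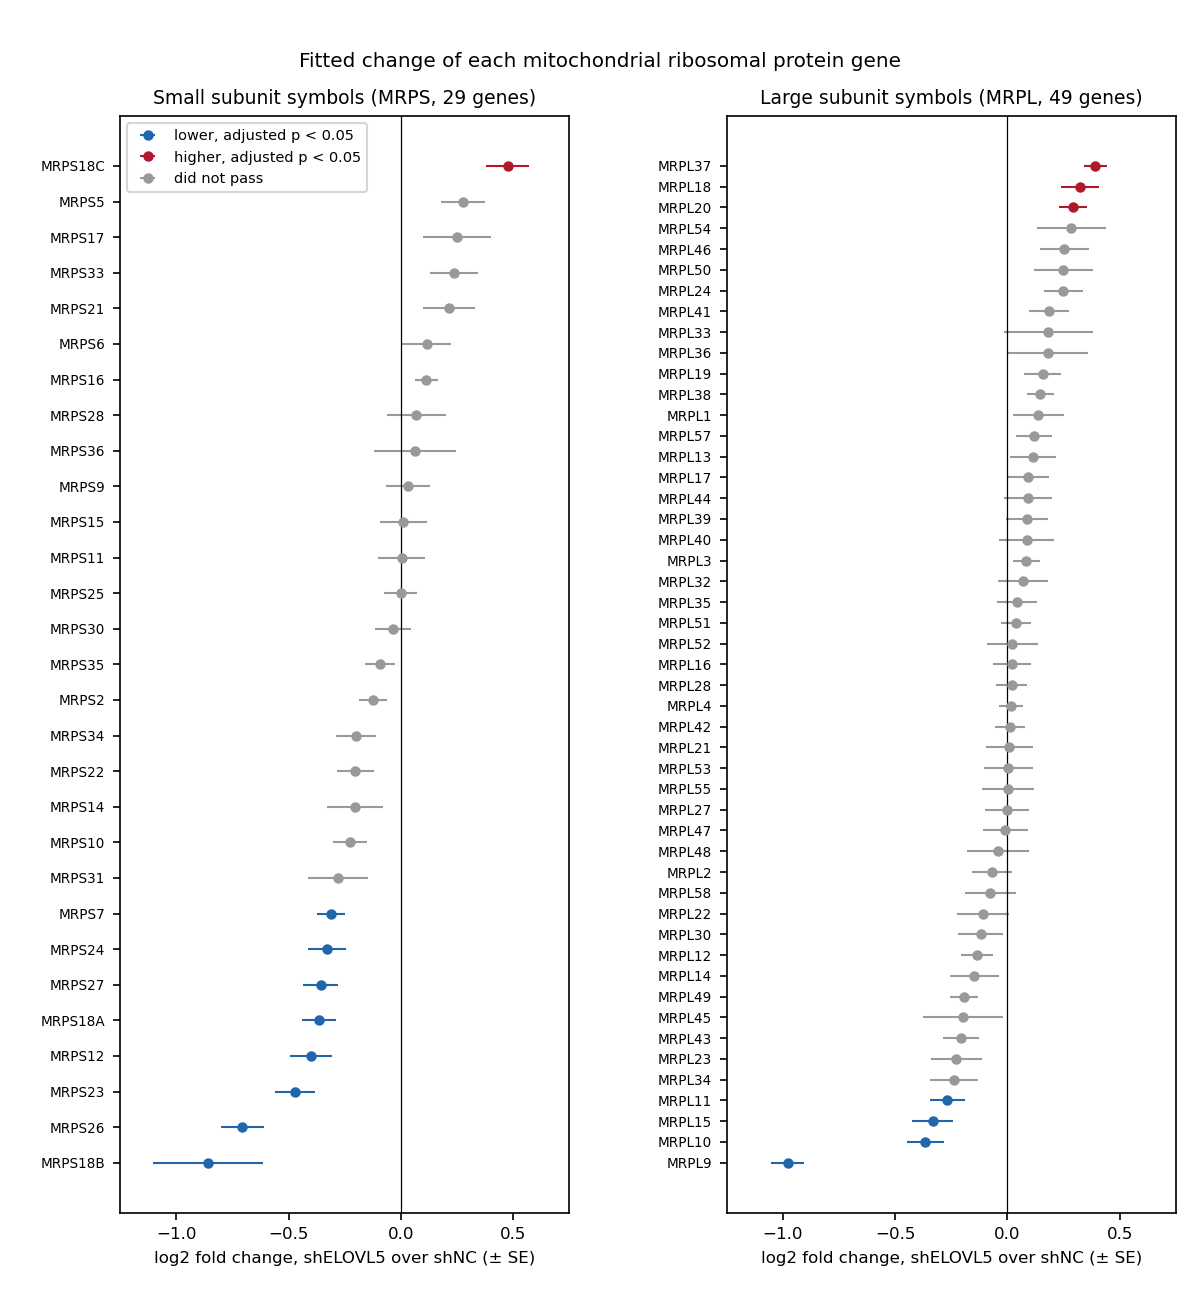
Fitted log2 fold change of shELOVL5 over shNC (x axis, bars ± SE of the fit) for each gene, with the 29 MRPS genes on the left and the 49 MRPL genes on the right, ordered by change. Blue points passed as lower (8 MRPS and 4 MRPL genes), red points as higher (1 MRPS and 3 MRPL genes), and grey points did not pass.

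The promoters of the 2 lower and the 2 higher genes with the smallest adjusted p are shown, since these 4 lead each direction. Each runs from 250 bases before to 50 bases after a RefSeq transcript start on GRCh38.p14, written 5′ to 3′ along the gene's own strand. They lie at chr1:151763447-151763746 on the minus strand (MRPL9), chr20:3045802-3046101 on the plus strand (MRPS26), chr1:54199917-54200216 on the plus strand (MRPL37) and chr4:83455808-83456107 on the plus strand (MRPS18C). Capitals mark matches, on either strand, to 4 motifs of factors known for controlling nuclear genes of mitochondria or growth: CCGGAAG (ETS factors such as GABPA), CGCANGCG (NRF1), CACGTG (the E-box of MYC and its relatives) and AAGATGGC (YY1).
MRPL9: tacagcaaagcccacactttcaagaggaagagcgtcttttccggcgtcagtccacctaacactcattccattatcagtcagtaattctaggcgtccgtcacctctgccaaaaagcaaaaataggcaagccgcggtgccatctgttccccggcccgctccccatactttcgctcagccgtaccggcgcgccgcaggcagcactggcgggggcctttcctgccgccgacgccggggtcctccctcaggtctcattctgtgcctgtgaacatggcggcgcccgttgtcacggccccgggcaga
MRPS26: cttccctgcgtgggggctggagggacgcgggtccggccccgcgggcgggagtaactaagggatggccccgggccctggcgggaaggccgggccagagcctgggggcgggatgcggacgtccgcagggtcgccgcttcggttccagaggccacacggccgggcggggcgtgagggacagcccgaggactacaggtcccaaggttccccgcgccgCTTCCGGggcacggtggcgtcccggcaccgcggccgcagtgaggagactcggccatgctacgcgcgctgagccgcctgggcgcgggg
MRPL37: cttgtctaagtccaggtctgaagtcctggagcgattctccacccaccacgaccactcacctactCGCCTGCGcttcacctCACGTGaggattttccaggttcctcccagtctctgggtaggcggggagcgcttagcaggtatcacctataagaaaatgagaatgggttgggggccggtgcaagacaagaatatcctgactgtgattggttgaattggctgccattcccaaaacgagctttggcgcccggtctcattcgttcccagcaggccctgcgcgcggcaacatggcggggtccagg
MRPS18C: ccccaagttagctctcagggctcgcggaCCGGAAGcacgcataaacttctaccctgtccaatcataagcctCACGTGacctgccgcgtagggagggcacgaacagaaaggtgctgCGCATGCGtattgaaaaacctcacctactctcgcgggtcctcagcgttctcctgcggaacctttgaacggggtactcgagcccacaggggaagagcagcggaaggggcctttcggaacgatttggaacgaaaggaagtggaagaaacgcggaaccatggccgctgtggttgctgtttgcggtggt
The MRPL9 promoter held none of the 4 words, and that of MRPS26 held the ETS word alone. The MRPL37 window held the NRF1 word and the E-box, and that of MRPS18C held those and the ETS word. A match is a run of letters and not a shown binding site, and the RefSeq start used for MRPL37 lies inside the longer GENCODE span of that gene.

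Across the family, 69 of the 78 genes had a promoter in the RefSeq table. Of these, 42.0% held the ETS word, against 19.1% of the promoters of tested protein-coding genes and 10.7% of all promoters in the table. The YY1 word was held by 28.99%, against 5.31% and 3.03%. For the NRF1 word the share was 18.8%, against 18.8% and 10.6%, and for the E-box 8.70%, against 10.2% and 7.43%. Among the 10 lower genes with a promoter, 6 held the YY1 word, 4 the ETS word and 0 the NRF1 word or the E-box. Among the 4 higher genes, 3 held the NRF1 word, 2 the E-box, 2 the ETS word and 1 the YY1 word. These shares describe letters in a window, and the groups of called genes are too small to set apart.

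MRPL9, a large subunit protein with a bacterial counterpart (bL9m), had the largest fall of the family. Its gene lies on chromosome 1 (151759643 to 151763564, minus strand, GRCh38) and stood at 119 and 108 CPM in the shNC libraries and at 59.5 and 55.4 CPM in the shELOVL5 libraries. The groups were far apart beside the spread within each, with means of 113 ± 8.03 and 57.4 ± 2.84 CPM (SD, n = 2 each). The log2 fold change was -0.98 (SE 0.0748, adjusted p = 1.19e-05), a 1.97-fold lower level.

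MRPS26, a small subunit protein without a bacterial counterpart (mS26), is encoded on chromosome 20 (3045945 to 3048254, plus strand). It stood at 47.1 and 50.7 CPM in shNC and at 30.2 and 29.8 CPM in shELOVL5. The shELOVL5 libraries were nearly equal and both well under the controls. The log2 fold change was -0.71 (SE 0.0960, adjusted p = 0.000558). MRPS23, another mitochondria-specific protein of the small subunit (mS23), is encoded on chromosome 17 (57834781 to 57850056, minus strand) and went from 55.5 and 52.8 CPM to 38.5 and 39.7 CPM. Again the groups did not overlap, with a log2 fold change of -0.47 (SE 0.0884, adjusted p = 0.00392). MRPL9, MRPS26, MRPS23 and, among the higher genes, MRPL37 were the 4 genes that passed the threshold whichever library was left out.

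MRPS18B, a small subunit protein now named mS40, had the second largest fitted fall and the widest error. It is encoded on chromosome 6 (30617709 to 30626395, plus strand) and stood at 13.6 and 13.3 CPM in shNC and at 9.27 and 5.57 CPM in shELOVL5. Both shELOVL5 libraries were lower, but they differed from each other by more than either control did from the other. The log2 fold change was -0.86 (SE 0.245, adjusted p = 0.0317). The adjusted p was 0.0940 without shNC replicate 1, 0.0906 without shNC replicate 2 and 0.179 without shELOVL5 replicate 2, so the call rests on those libraries. It also ended without robust estimation of the spread (adjusted p = 0.0599) and with no low-count filter (0.117). The gene also lies in the major histocompatibility region, where alternate haplotype sequences exist, and the sources used here do not say how reads were shared among copies.

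MRPS12, the counterpart of bacterial S12 in the decoding centre (uS12m), is encoded on chromosome 19 (38930548 to 38933162, plus strand). It stood at 47.9 and 45.5 CPM in shNC and at 35.8 and 35.0 CPM in shELOVL5. The log2 fold change was -0.40 (SE 0.0927, adjusted p = 0.0122). MRPL10 (uL10m), which forms the base of the stalk that recruits translation factors, is encoded on chromosome 17 (47823272 to 47831534, minus strand) and went from 64.5 and 64.2 CPM to 51.8 and 48.1 CPM. Its log2 fold change was -0.37 (SE 0.0821, adjusted p = 0.0102). In both genes the libraries of each group lay close together and the groups did not overlap. The MRPL10 call ended without shELOVL5 replicate 2 (adjusted p = 0.0863), and that of MRPS12 without that library (0.0767), without shELOVL5 replicate 1 (0.0642) or without shNC replicate 1 (0.0575).

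A further 6 genes fell by less, each with non-overlapping groups. They were MRPS18A (-0.36 on the log2 scale, adjusted p = 0.00746), MRPS27 (-0.36, adjusted p = 0.00909), MRPL15 (-0.33, adjusted p = 0.0280), MRPS24 (-0.33, adjusted p = 0.0204), MRPS7 (-0.31, adjusted p = 0.00658) and MRPL11 (-0.27, adjusted p = 0.0323). MRPS7 and MRPS24 are the counterparts of bacterial S7 and S3 in the head of the small subunit, MRPS27 is a pentatricopeptide repeat protein of that subunit, and MRPL11 sits with MRPL10 at the base of the stalk. Without shELOVL5 replicate 2 all 6 calls ended, with adjusted p of 0.0789 (MRPS18A), 0.0765 (MRPS27), 0.0909 (MRPL15), 0.111 (MRPS24), 0.0753 (MRPS7) and 0.175 (MRPL11). MRPL15, MRPS24 and MRPL11 also missed without shNC replicate 1 (adjusted p = 0.113, 0.102 and 0.110) and without shELOVL5 replicate 1 (0.150, 0.0821 and 0.0914). By DESeq2 the adjusted p of MRPL15 was 0.0669 and that of MRPL11 0.0741.

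Of the 4 genes that rose, MRPL37 had the smallest p. It encodes a mitochondria-specific large subunit protein (mL37) on chromosome 1 (54184041 to 54225464, plus strand) and stood at 140 and 136 CPM in shNC and at 182 and 179 CPM in shELOVL5. The 2 groups were tight and well apart, with a log2 fold change of 0.39 (SE 0.0493, adjusted p = 0.000341). MRPS18C, a counterpart of bacterial S18 (bS18m) on chromosome 4 (83455932 to 83469735, plus strand), went from 42.4 and 41.5 CPM to 62.4 and 54.3 CPM. Its log2 fold change was 0.48 (SE 0.0949, adjusted p = 0.00561), with the shELOVL5 libraries further from each other than the controls.

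MRPL18 (uL18m), which lies beside the structural RNA of the central protuberance, is encoded on chromosome 6 (159789812 to 159798436, plus strand). It stood at 54.4 and 57.5 CPM in shNC and at 74.1 and 65.7 CPM in shELOVL5, a log2 fold change of 0.32 (SE 0.0857, adjusted p = 0.0232). MRPL20 (bL20m), a counterpart of a bacterial protein that binds the large ribosomal RNA, is encoded on chromosome 1 (1401908 to 1407313, minus strand) and went from 80.7 and 78.5 CPM to 97.0 and 97.9 CPM. Its log2 fold change was 0.29 (SE 0.0624, adjusted p = 0.00801). Every shELOVL5 library was above every control for these 4 genes. Without shELOVL5 replicate 1 the adjusted p was 0.0797 for MRPS18C, 0.224 for MRPL18 and 0.0614 for MRPL20, so that MRPL37 alone of the 4 passed. MRPL18 also missed without shNC replicate 1 (0.0819), and MRPL20 without shELOVL5 replicate 2 (0.0686).

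**Figure D2:**
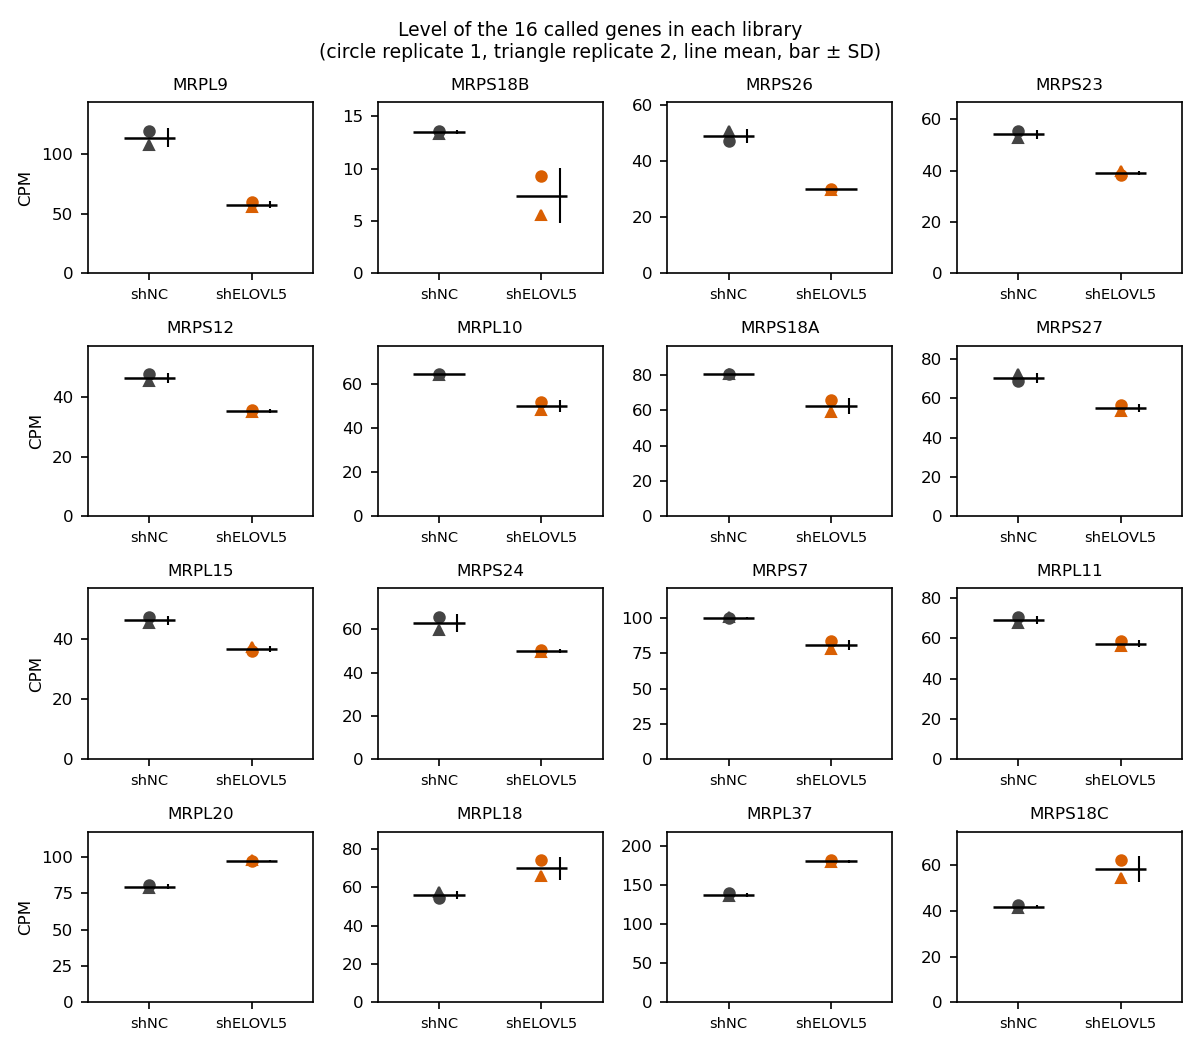
TMM-scaled CPM (y axis, from 0) of the 16 genes that passed, in each library, with shNC in grey and shELOVL5 in orange; circles are replicate 1, triangles replicate 2, lines the mean and bars ± SD of n = 2. MRPL9 is at 59.5 and 55.4 CPM in shELOVL5 against 119 and 108 CPM in shNC, and the shELOVL5 pair of MRPS18B, at 9.27 and 5.57 CPM, is spread widely.

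The 3 paralogs of bacterial S18 did not move together. MRPS18A, which sits in the large subunit in spite of its symbol (mL66), went from 80.4 CPM in both shNC libraries to 65.7 and 59.1 CPM in shELOVL5. MRPS18B fell and MRPS18C rose, as given above, from 13.5 ± 0.186 and 42.0 ± 0.667 CPM in shNC to 7.42 ± 2.62 and 58.4 ± 5.67 CPM in shELOVL5 (SD, n = 2). MRPS18A and MRPS18B lost their calls without shELOVL5 replicate 2 (adjusted p = 0.0789 and 0.179), MRPS18B also without shNC replicate 1 (0.0940) or shNC replicate 2 (0.0906), and MRPS18C without shELOVL5 replicate 1 (0.0797).

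The subunits were then set side by side. Of the 29 MRPS genes 8 fell and 1 rose, 31.0% called, with a median log2 fold change of -0.09 (quartiles -0.31 and 0.07). Of the 49 MRPL genes 4 fell and 3 rose, 14.3% called, with a median of 0.02 (quartiles -0.11 and 0.14). Of all tested genes 20.4% were called, and of the tested protein-coding genes 24.8%. The groups did not overlap for 22 MRPS genes (75.9%), of which 16 were lower in shELOVL5 and 6 higher, and for 28 MRPL genes (57.1%), of which 12 were lower and 16 higher, against 60.1% of all tested and 64.7% of tested protein-coding genes. Without shNC replicate 1 the lower genes numbered 5 MRPS and 2 MRPL, without shELOVL5 replicate 2 they numbered 2 and 1, and without shELOVL5 replicate 1 the MRPL genes numbered 2. The large subunit median was -0.01 without shNC replicate 2, so its sign is not settled. The difference between the subunits was described and not tested.

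In the sum over genes the 29 MRPS genes stood at 1597 and 1532 CPM in the shNC libraries and at 1462 and 1447 CPM in the shELOVL5 libraries. Both shELOVL5 sums were under both controls. The 49 MRPL genes summed to 2657 and 2588 CPM in shNC and to 2639 and 2627 CPM in shELOVL5, and there the groups overlapped. The ratio of the MRPS to the MRPL sum was 0.601 and 0.592 in shNC and 0.554 and 0.551 in shELOVL5. These sums go by symbol and leave out AURKAIP1, CHCHD1, PTCD3 and DAP3 of the small subunit and GADD45GIP1 of the large. Those 5 genes together came to 447 and 425 CPM in shNC and to 474 and 499 CPM in shELOVL5, higher in both shELOVL5 libraries. A fall of the whole small subunit is thus not shown. With 2 libraries against 2, an exact two-sided permutation test cannot give a p below 0.333, so none was run.

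**Figure D3:**
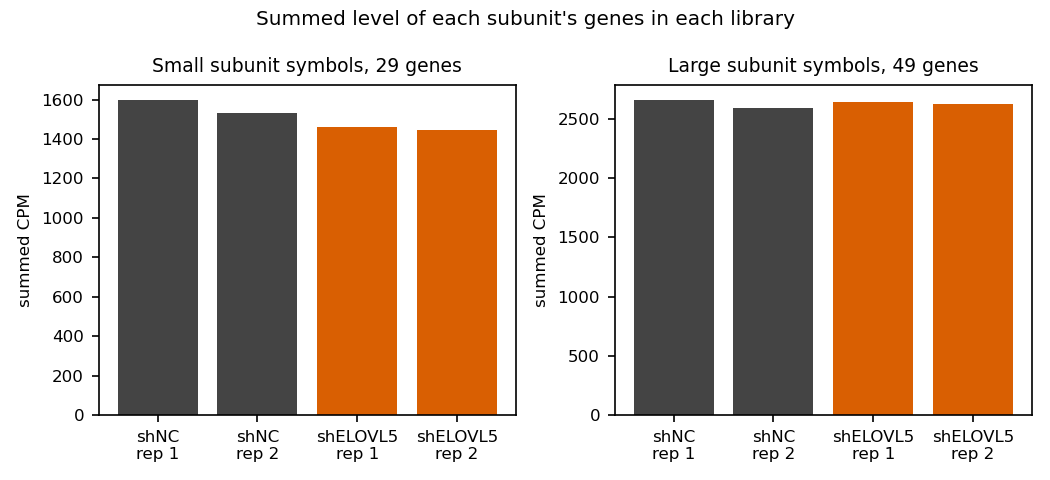
Summed TMM-scaled CPM (y axis, from 0) of the 29 MRPS genes (left) and the 49 MRPL genes (right) in each library, shNC in grey and shELOVL5 in orange. The MRPS sums of 1462 and 1447 CPM in shELOVL5 lie under the controls at 1597 and 1532 CPM, while the MRPL sums overlap. Subunit proteins with other symbols are not included.

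Symbols do not follow the structure in every case. MRPS18A and MRPS30 encode proteins of the large subunit, and MRPS36 is now known as a component of the 2-oxoglutarate dehydrogenase complex rather than of the ribosome. The MRPS and MRPL genes were also placed by structure, with subunits with other symbols still left aside. By place, the small subunit genes summed to 1449 and 1383 CPM in shNC and to 1331 and 1320 CPM in shELOVL5. The large subunit genes summed to 2794 and 2725 CPM in shNC and to 2759 and 2742 CPM in shELOVL5. Of the 26 small subunit genes 7 fell and 1 rose (30.8% called, median -0.11). In the large subunit 5 of 51 genes fell and 3 rose (15.7% called, median 0.02), against 20.4% of all tested genes called. MRPS30 stood at 56.0 and 56.6 CPM in shNC and at 54.3 and 55.5 CPM in shELOVL5, and MRPS36 at 11.1 and 11.7 CPM against 11.2 and 12.6 CPM, and neither passed.

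Within the small subunit, the genes classed as with and without bacterial counterparts gave different medians. The classes follow the structural names, so the S18 paralogs MRPS18B (mS40) and MRPS18A (mL66) count as mitochondria-specific. Of the 10 mitochondria-specific small subunit genes with an MRPS symbol 4 fell (MRPS18B, MRPS26, MRPS23 and MRPS27) and 0 rose. Those calls were 40% of the 10 genes, against 20.4% of all tested genes called and 11.2% lower. The median of the 10 was -0.24, with a negative change in 9 of 10. Among the 9 were MRPS25 at -0.001 and MRPS35 at -0.09, which did not pass. The count of 0 held with edgeR at an unadjusted p under 0.05, with DESeq2 and with limma-voom, and the count of 4 was 6 at an unadjusted p and 4 with the other tools. MRPS33 was the only one of the 10 with a positive value, at 26.6 and 26.2 CPM in shNC and 31.9 and 30.3 CPM in shELOVL5. The small subunit proteins without an MRPS symbol, which are mitochondria-specific too, had other values: AURKAIP1 rose (0.53), and CHCHD1 (0.35), PTCD3 (0.02) and DAP3 (-0.13) did not pass. The 16 MRPS genes with bacterial counterparts had a median of 0.02, with 3 lower and 1 higher (25% called). In the large subunit the median was 0.01 over 30 genes with bacterial counterparts (4 lower, 2 higher, 20% called). It was 0.04 over 21 without (1 lower, 1 higher, 9.52% called). Of the mitochondria-specific small subunit calls, those of MRPS18B and MRPS27 ended without shELOVL5 replicate 2 (adjusted p = 0.179 and 0.0765), and that of MRPS18B also without shNC replicate 1 (0.0940) or 2 (0.0906).

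Levels were compared between genes as CPM per kilobase of exon, averaged over the 4 libraries and thus over both groups. In the large subunit the highest were MRPL12 (79.3), the protein of the stalk, MRPL37 (62.4) and MRPL51 (52.7), and the lowest MRPL42 (4.81), MRPL48 (4.55) and MRPL46 (4.47). In the small subunit the highest were MRPS34 (65.0), MRPS18A (55.6) and MRPS16 (55.6), and the lowest MRPS23 (7.31), MRPS18B (5.53) and MRPS33 (5.47). The ranges over libraries overlapped for MRPS34 and MRPS18A, for MRPS18A and MRPS16, for MRPS23 and MRPS18B, for MRPS18B and MRPS33, and among MRPL42, MRPL48 and MRPL46, so these neighbours in the order are not set apart. MRPL12 lay between 73.7 and 87.0 CPM per kilobase and MRPL37 between 53.2 and 71.4, which overlapped MRPL51 (50.7 to 54.4). In the shNC libraries alone MRPL9 was second in the large subunit (62.5), ahead of MRPL37 (54.0), and the lowest of the small subunit were MRPS18B (7.13), MRPS5 (6.79) and MRPS33 (5.02), with MRPS23 at 8.49. The order also depends on the length used: with the longest transcript in place of all exons, MRPL37 (101), MRPL4 (89.1) and MRPL3 (79.4) led the large subunit.

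Many of these genes share exon bases with a neighbour: 41 of the 78 did so in GENCODE 29, 16 on the same strand and 29 on the opposite strand. The sources used here do not say whether the counting used strand, so how reads within the shared bases were assigned is not known. Of the 14 tested genes that overlap a called member, 2 were themselves called, where 20.4% of all tested genes were. Both lie opposite a member that rose. ABRAXAS1, a protein of a DNA repair complex, covers 40.2% of the exon bases of MRPS18C and stood at 41.5 and 34.8 CPM in shNC and at 21.5 and 24.2 CPM in shELOVL5 (log2 fold change -0.74, SE 0.124, adjusted p = 0.00197). SSBP3, which encodes a single-stranded DNA binding protein, covers 33 bases (1.3%) of MRPL37 exons and stood at 141 and 131 CPM in shNC and at 95.9 and 88.2 CPM in shELOVL5 (log2 fold change -0.56, SE 0.0656, adjusted p = 0.000203).

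Each of those pairs was summed, a step chosen after the values were seen. MRPS18C with ABRAXAS1 came to 83.9 and 76.3 CPM in shNC and to 83.9 and 78.6 CPM in shELOVL5, a log2 ratio of the means of 0.02. MRPL37 with SSBP3 came to 281 and 267 CPM in shNC and to 278 and 267 CPM in shELOVL5, a log2 ratio of -0.01. In both pairs the sums overlapped between the groups while the members differed. MRPL9 overlaps OAZ3 on the opposite strand (18.4% of its exon bases), which was counted 48 and 34 times in shNC and 74 and 67 times in shELOVL5, and the summed log2 ratio there was -0.91. The pairs differ in what they share: 40.2% of the exon bases of MRPS18C and 1.3% of those of MRPL37. The part of read assignment in either rise was not tested.

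**Figure D4:**
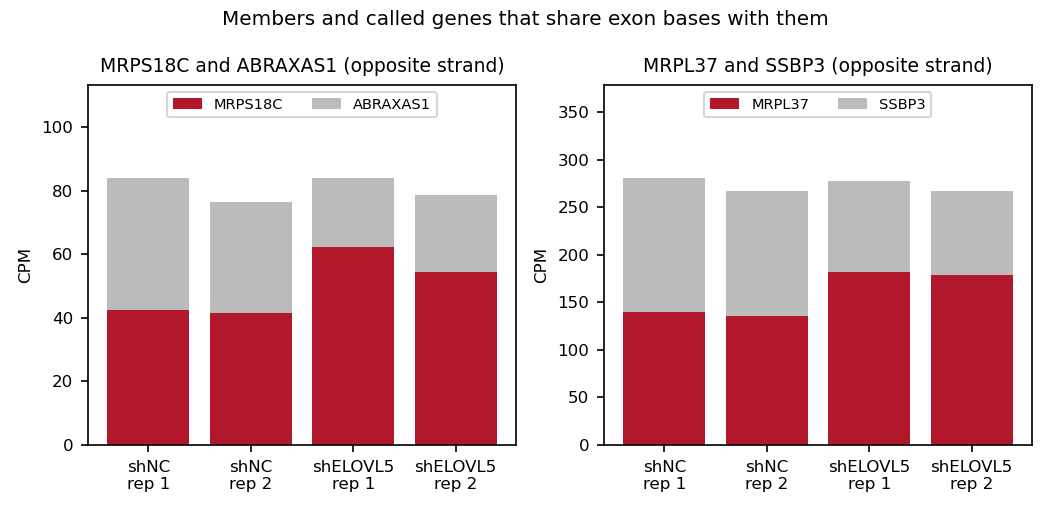
TMM-scaled CPM (y axis, from 0) in each library of MRPS18C stacked with ABRAXAS1 (left) and of MRPL37 stacked with SSBP3 (right), members in red and overlapping genes in grey. The red parts are taller in shELOVL5 (62.4 and 54.3 CPM for MRPS18C, 182 and 179 CPM for MRPL37) while the full bars end at similar heights in all 4 libraries. ABRAXAS1 covers 40.2% of the exon bases of MRPS18C, and SSBP3 covers 1.3% of those of MRPL37.

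A readthrough gene on the same strand, AC139530.2, covers 68.2% of the exon bases of MRPL12 and was counted 0, 0 and 0 times in shNC replicates 1 and 2 and shELOVL5 replicate 1, and 254 times in shELOVL5 replicate 2. MRPL12 itself was counted 1381, 1436, 1391 and 1252 times in the same order. The lowest count of MRPL12 thus fell in the library that held the readthrough counts, and MRPL12 did not pass (log2 fold change -0.14, adjusted p = 0.230). Pseudogenes named after members were little counted: 15 of 74 had any count, with sums of 558, 366, 496 and 380 per library, most of them from MRPS31P5.

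For 29 of the genes the start of a protein-coding neighbour on the opposite strand lay within 1000 bases. Of the 29 tested neighbours 4 were called (13.8%, under the 20.4% of all tested genes), and the 4 members beside them were not. Named after their values were seen, these neighbours were TMEM63B beside MRPL14 (log2 fold change 0.59, adjusted p = 0.00175), and EME1 beside MRPL27 (-0.51, adjusted p = 0.00941), TWNK beside MRPL43 (-0.66, adjusted p = 0.000770) and SKA3 beside MRPL57 (-0.34, adjusted p = 0.0175). MRPL14 was at -0.15, MRPL27 at -0.002, MRPL43 at -0.21 and MRPL57 at 0.12 on the log2 scale.

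Around the proteins stand the genes that supply, build and feed the mitochondrial ribosome. Both ribosomal RNAs were lower: MT-RNR1, of the small subunit, stood at 1237 and 1183 CPM in shNC and at 577 and 535 CPM in shELOVL5 (log2 fold change -1.12, SE 0.0431, adjusted p = 9.48e-08). MT-RNR2, of the large subunit, went from 4558 and 4278 CPM to 3100 and 2937 CPM (log2 fold change -0.55, SE 0.0382, adjusted p = 1.15e-05). The groups were far apart for both RNAs, and the fitted fall was larger for the small subunit RNA, a difference that was not tested. Of the 13 mitochondrially encoded protein genes 11 rose by edgeR (84.6%, against 9.22% of all tested genes) and 13 by DESeq2 and limma-voom. Their median was 0.39. The 3 with the smallest p were MT-ND2 (log2 fold change 0.65), MT-ND4L (0.66) and MT-ND4 (0.54), subunits of complex I. MT-ND1, MT-ND5, MT-ND6, MT-CYB, MT-CO1, MT-CO3, MT-ATP6 and MT-ATP8 also rose, and MT-ND3 (0.87) and MT-CO2 (0.27) did not pass. How ribosomal RNA was handled before sequencing is not stated beyond the kit, and its part in these values was not tested.

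Of 5 ribosomal proteins with symbols of another kind, 2 rose (40%, against 9.22% of all tested genes) and 0 fell. The count of 0 was the same at an unadjusted p under 0.05 by edgeR and with DESeq2 and limma-voom. AURKAIP1, a small subunit protein, stood at 81.9 and 84.0 CPM in shNC and at 112 and 127 CPM in shELOVL5 (log2 fold change 0.53, adjusted p = 0.000527 by edgeR's quasi-likelihood test). GADD45GIP1, a large subunit protein, was at 0.25 (adjusted p = 0.0135), and that call ended without shNC replicate 2 (0.0592) or shELOVL5 replicate 1 (0.140).

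Of 29 assembly factors and ribosomal RNA modifying enzymes 4 fell and 1 rose, with a median of -0.08. That is 17.2% called, against 20.4% of all tested genes, and DESeq2 called 2 lower and 0 higher (1 higher by edgeR at an unadjusted p under 0.05). METTL17, a factor of small subunit assembly, had the smallest p (log2 fold change -0.34, adjusted p = 0.00171), and it went from 124 and 122 CPM to 96.8 and 97.6 CPM. The other calls were MTG2 (-0.32), DDX28 (-0.38) and FASTKD2 (-0.35), which act on the large subunit or its RNA, and TRMT61B (0.53), a methyltransferase. All 4 of these ended without shELOVL5 replicate 2 (adjusted p = 0.137, 0.177, 0.1002 and 0.136 in that order) and without shELOVL5 replicate 1 (0.0699, 0.0572, 0.146 and 0.127). DDX28, FASTKD2 and TRMT61B also missed without shNC replicate 1 (0.125, 0.156 and 0.0565), and MTG2 and TRMT61B without shNC replicate 2 (0.0762 and 0.143).

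Of 21 translation factors and activators 4 rose and 1 fell, with a median of 0.04. That is 23.8% called, against 20.4% of all tested genes, and DESeq2 called 1 higher and 0 lower (3 lower by edgeR at an unadjusted p under 0.05). MTIF3, an initiation factor, went from 22.6 and 20.8 CPM to 34.9 and 33.6 CPM (log2 fold change 0.66, adjusted p = 0.00217). The other rises were GFM1 (0.29), an elongation factor, LRPPRC (0.19), which stabilises mitochondrial messenger RNAs, and LETM1 (0.16), and the fall was TACO1 (-0.32), an activator of MT-CO1 translation. Without shELOVL5 replicate 1 these 4 had adjusted p of 0.195, 0.218, 0.380 and 0.191, without shNC replicate 1 of 0.124, 0.0950, 0.0969 and 0.121, and without shELOVL5 replicate 2 of 0.0836, 0.0688, 0.0594 and 0.0758. LETM1 and TACO1 also missed without shNC replicate 2 (0.143 and 0.0583).

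Of 22 genes of mitochondrial transcription and RNA processing 5 fell and 2 rose, with a median of -0.04. That is 31.8% called, against 20.4% of all tested and 24.8% of tested protein-coding genes, and DESeq2 called 4 lower and 1 higher. HSD17B10, a subunit of mitochondrial RNase P, went from 64.2 and 59.7 CPM to 112 and 101 CPM (log2 fold change 0.78, adjusted p = 5.99e-05). Its partners in that enzyme moved the other way, TRMT10C at -0.52 (adjusted p = 0.0100) and PRORP at -0.64 (adjusted p = 0.0134). TWNK, the mitochondrial DNA helicase (-0.66, adjusted p = 0.000770), and MTPAP, the poly(A) polymerase (-0.52, adjusted p = 0.00231), fell too, as did FASTKD3 (-0.49), while FASTK rose (0.26). TRMT10C and PRORP missed without shNC replicate 1 (0.0541 and 0.0597) and without shELOVL5 replicate 1 (0.0913 and 0.0754). FASTK and FASTKD3 missed without shNC replicate 1 (0.0700 and 0.156), shELOVL5 replicate 1 (0.103 and 0.0828) or shELOVL5 replicate 2 (0.137 and 0.201), and FASTKD3 also without shNC replicate 2 (0.0814).

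Among 14 listed regulators of mitochondrial biogenesis or stress, of which 13 were tested, 4 fell and 0 rose. At an unadjusted p under 0.05 by edgeR 1 rose, and 0 did with DESeq2 and limma-voom. The calls were 30.8% of those tested, against 20.4% of all tested genes called and 11.2% lower. The list was chosen with earlier results of these data known, and its 4 calls were ATF4, MYC, ATF5 and DDIT3. Its share is therefore a description and not a test. ATF4 stood at 503 and 506 CPM in shNC and at 209 and 205 CPM in shELOVL5 (log2 fold change -1.29, adjusted p = 1.95e-08), MYC at 171 and 183 against 102 and 108 CPM (-0.75, adjusted p = 1.34e-05), and ATF5 at 63.9 and 67.2 against 32.3 and 35.0 CPM (-0.96, adjusted p = 4.41e-05). DDIT3 fell as well (-0.90, adjusted p = 0.00153). Of the factors named with the motifs, MYC thus fell, while NRF1 was at -0.06, GABPA at 0.17 and YY1 at 0.003 on the log2 scale and did not pass. GABPB1 (-0.13), ESRRA (0.04), PPRC1 (-0.15), PPARGC1B (-0.32), TFEB (0.40) and CLUH (0.08) did not pass either.

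The ribosomal proteins of the cytosol, counted in the same libraries, gave other numbers. Of those 77 genes 41 fell and 0 rose (53.2% called, against 20.4% of all tested genes), with a median of -0.22. At an unadjusted p under 0.05 by edgeR the counts were 51 and 0, with DESeq2 45 and 0 and with limma-voom 39 and 0. The mitochondrial family had 12 lower and 4 higher of 78, with a median of 0.01. The difference between the families was described and not tested.

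**Figure D5:**
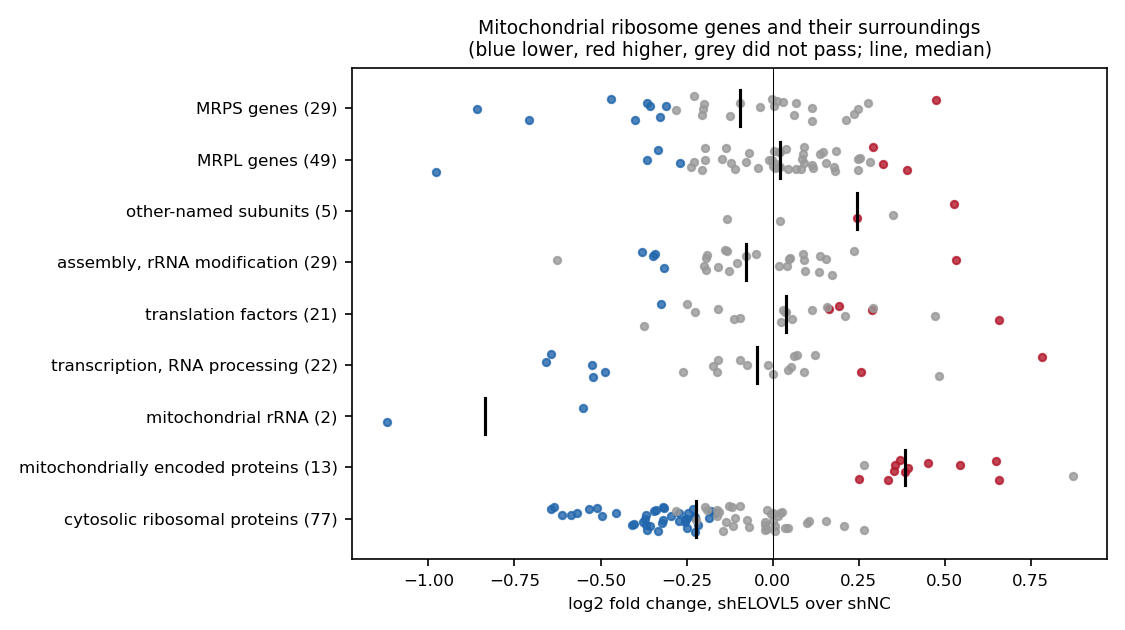
Log2 fold change of shELOVL5 over shNC (x axis) of each tested gene in the MRPS and MRPL families, the lists around the mitochondrial ribosome and the cytosolic ribosomal proteins (rows, number of genes in brackets); blue passed as lower, red as higher, grey did not pass, and the black line is the median of the row. The medians of the MRPS and MRPL genes, -0.09 and 0.02, lie near 0, that of the mitochondrially encoded proteins is 0.39 and that of the cytosolic ribosomal proteins is -0.22.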

How the data were processed

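RNA of 4 libraries was measured by sequencing. The authors deposited a table of counts, given as whole numbers for each Ensembl gene. Per the submitters' processing notes HISAT2 2.2.0, StringTie and build hg38 were used. The sources used here give neither the annotation nor the counting step nor whether strand was used. Libraries were grouped by title. Symbols came from a gene name table, coordinates and exon lengths from GENCODE 29 (GRCh38) and promoters from RefSeq (GRCh38.p14).

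Counts were fitted with edgeR 4.0.16 in R 4.3.3: filterByExpr with a minimum count of 10, TMM scaling, a robust quasi-likelihood fit with group as the only term, a two-sided test and Benjamini-Hochberg adjustment over 17461 genes, threshold 0.05. A count of 3 corresponded to 0.172 to 0.187 CPM. The fit was tested on data simulated from the means and spread of these libraries, with few changed genes. That run checks the code and cannot show that the calls hold. Alternatives used DESeq2 1.42.0, limma-voom 3.58.1, other scalings and filters, a replicate block, a test against a 1.2-fold change, each library left out, subunits by structure and another gene length.

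The members, lists and rules were chosen with earlier results of these data known, so the shares called in the lists are descriptions and not tests. Named were every member past the threshold, with the value in each library for up to 6 per direction with the largest change and a mean of at least 5 CPM, the MRPS18 paralogs, the 3 highest and 3 lowest levels per length in each subunit, and each called gene of the lists.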

Additional observations from a re-analysis of the deposited data

How the results depend on the processing

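Against the 16 calls (12 lower, 4 higher), RLE size factors and the replicate block each gave 17, adding MRPL49 (adjusted p = 0.0497 and 0.0498), limma-voom and a filter of 1 CPM in 2 libraries gave the same 16, DESeq2 14 and no low-count filter 12. The replicate block changed no other call among the members and of the list genes ended that of LETM1 (adjusted p = 0.0519). The labels state no pairing of same-numbered libraries. Deviations of such libraries from their group means correlated at r = -0.001 over 17461 genes. That value cannot show whether they were handled together. Scaling by total counts moved the median of all genes from 0.01 to 0.04, the small subunit median to -0.058 and the large to 0.056, with 2 MRPS genes higher (MRPS5 added, as MRPL24 was, while MRPL11 was lost). No low-count filter and DESeq2 each left 2 MRPL genes lower, and no filter left 10 list genes lower, from 16. A test against a 1.2-fold change called 1 higher and 2 lower members (MRPS 0 and 1, MRPL 1 and 1), and 10 higher and 8 lower list genes, from 20 and 16. With 1 library left out, where the lone library of a group is assumed to vary like the other group, the ranges were 1 to 4 members higher and 3 to 12 lower, 0 to 2 MRPS higher and 2 to 7 lower, 1 to 3 MRPL higher and 1 to 5 lower, and 15 to 19 list genes higher and 9 to 14 lower. The medians then ranged from -0.13 to -0.074 (small subunit) and from -0.0054 to 0.051 (large, negative without shNC replicate 2). The longest transcript as length raised the median level per kilobase in shNC from 11.6 to 23.0 (small subunit) and from 23.3 to 31.2 (large). The cause of these moves was not tested. In 1 pair of members with like changes the counts and errors differed. MRPL54, with 259 to 356 counts, had a log2 fold change of 0.28 with SE 0.153 and did not pass. MRPL20, with 1259 to 1695 counts, had 0.29 with SE 0.0624 and passed. MRPS18B passed with 92 to 231 counts, and the part of depth in the calls was not tested. A fit without robust estimation gave 15 members, losing MRPS18B.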
